A study of Mus musculus with 3 samples.

Results

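Fibroblast growth factor 4 (FGF4), which mouse embryonic stem (ES) cells secrete, binds FGF receptors on the same cells and starts the kinase cascade of RAS, RAF, MEK and ERK. Active ERK leads ES cells away from self-renewal and towards differentiation, and it also induces genes whose products hold the cascade back, so that the transcripts of these feedback genes are widely read as an output of the pathway. Followed here are 9 genes, chosen by symbol, of the 52636 in the count tables. They are the ligand gene Fgf4, the receptor genes Fgfr1 and Fgfr2, the ERK phosphatase genes Dusp4 and Dusp6, the Sprouty genes Spry2 and Spry4, whose products act between receptor and RAF, and the genes of the ETS transcription factors ETV4 and ETV5. The last 6 are called the feedback genes. All 9 were found in the tables. ERK itself was not measured.

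The cells were JM8.N4 mouse ES cells of the C57BL/6N strain in which CRISPR editing fused RAD21, a subunit of the cohesin ring, to an auxin-inducible degron, a tag by which added auxin has the protein destroyed. Control cells and cells given 500 µM auxin for 6 h were sequenced by Smart-SCRB, a plate-based single-cell assay in which each captured transcript carries a unique molecular identifier (UMI), in 3 replicates with both conditions in each. Both groups carried the degron and grew without feeders in 15% serum with 1000 units of LIF, 3 µM CHIR99021 (an inhibitor of the kinase GSK3) and 1 µM PD0325901. PD0325901 inhibits MEK, so every cell in these comparisons was cultured with a block on the step that activates ERK. The labels give the same medium for each replicate and do not say how many edited clones were used.

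The deposited annotation gives a plate's condition, and in replicate 1 it names plates as RAD21 positive or negative, read here as control and auxin. For 2 of the 4 plates of replicate 3 it disagrees with the source values of the study, and those 168 cells were left out of the main values. The source values used here matched none of the 12 plates of replicates 1 and 2, whose conditions therefore rest on the annotation alone, the Fgf4 results of these replicates included. The 14 plates not in dispute held 1167 cells with more than 2600 detected genes. Replicates 1, 2 and 3 had 168, 371 and 85 control cells on 2, 4 and 1 plates, and 169, 290 and 84 auxin-treated cells on as many plates. Levels are in CPM, UMIs of a gene scaled to a common total of UMIs over the summed cells, and the sums per replicate and condition held 6064936 to 50448320 UMIs. The plates used 288 well barcodes in all, and each barcode recurred on another plate, so that a cell is named by plate and barcode. Rad21 transcript, whose protein product is the one destroyed, lay between 19.3 and 45.2 CPM in the 6 sums and does not test the depletion.

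Counts of genes that overlap others differed between replicate 1 and the other replicates, and why was not tested. Of genes at 20 CPM or more in replicate 1, 11.6% of the 1190 whose body overlaps another gene on the same strand were below 1 CPM in replicate 2, against 0.516% of the 4650 others. The corresponding shares in replicate 3 were 11.7% and 0.108%. Among the 9 genes, only Fgfr2 overlaps others on its strand, in the GENCODE annotation of mm10.

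Fgf4 (ENSMUSG00000050917, chr7:144847367-144865243) encodes the ligand, and it was the only one of the 9 genes that passed the edgeR test between auxin and control in any replicate. In replicate 2 the 4 control plates stood at 123.4, 91.8, 61.1 and 72.2 CPM, and the 4 auxin plates at 45.1, 44.0, 41.0 and 46.0 CPM. The lowest control plate lay above the highest auxin plate, and the fit with plates as units gave a log2 fold change of -1.03 (SE 0.19, adjusted p = 0.0124, quasi-likelihood test of edgeR, adjusted by Benjamini-Hochberg over 22493 genes). In that comparison 1.98% of all genes tested passed, and of the 9 genes 1 did. Leaving out each of the 8 plates in turn kept Fgf4 past the threshold, with log2 fold changes from -1.17 to -0.81. These p-values measure the spread between plates of 1 culture, not between cultures. Markers of the self-renewing state moved beside Fgf4 in that replicate: Nanog fell by 0.63 (SE 0.11, edgeR's adjusted p = 0.0102) and Esrrb by 1.41 (SE 0.18, edgeR's adjusted p = 0.000562) on the log2 scale, while of 8 ES cell markers 3 fell, the third being Dppa5a (by 0.79, SE 0.07, edgeR's adjusted p = 3.9e-05), and 5 did not pass. Sox2, among those 5, held no UMI in replicate 2 and so could not pass. The summed level of the 8 markers, mostly Dppa5a, was 4530 CPM in control and 2944 CPM in auxin. In replicates 1 and 3 another of the 8 markers, Utf1, was the only one that passed, and it fell by 1.71 (SE 0.19, edgeR's adjusted p = 0.00215) and by 2.08 (SE 0.27, edgeR's adjusted p = 0.0309), the latter with 1 plate against 1. Their part in the Fgf4 levels was not tested. In summed plates, fewer cells with the transcript and less transcript per cell cannot be told apart.

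Replicates 1 and 3 gave other orders. In replicate 1 the control plates stood at 117 and 152 CPM and the auxin plates at 199 and 279 CPM, so the groups did not overlap and lay in the opposite order. Its log2 fold change was 0.80 (SE 0.26, adjusted p = 0.309, edgeR). The difference between the responses of replicates 2 and 1 passed the test, at -1.83 on the log2 scale (SE 0.33, adjusted p = 0.0317, edgeR), where 0.289% of all genes passed. That call rested on the full set of plates, since leaving out single plates raised its adjusted p above 0.05 for 8 of 12 plates (the second auxin and both control plates of replicate 1, and the 4 auxin plates and the second control plate of replicate 2), with log2 differences from -2.06 to -1.56 and an adjusted p of up to 0.106. In replicate 3 the plates not in dispute held 107 CPM in control and 85.7 CPM in auxin, and the disputed plates held 74.8 CPM where annotated as control and 90.5 CPM where annotated as auxin. These 4 values differed by less than the spread between control plates of replicate 2.

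Fgfr1 (ENSMUSG00000031565, chr8:25513654-25575718) encodes the main FGF receptor of ES cells, and its level was higher with auxin by a similar ratio in each replicate. Control and auxin levels were 67.3 and 92.1 CPM in replicate 1, 34.9 and 48.2 CPM in replicate 2, and 48.5 and 61.5 CPM in replicate 3. The ratios of auxin to control were 1.37, 1.38 and 1.27, and their exact 95% counting intervals (1.27 to 1.48, 1.30 to 1.47 and 1.09 to 1.48) leave out the spread between plates. The plates of replicate 1 did not overlap (62.0 and 73.3 CPM against 90.3 and 93.7 CPM), while those of replicate 2 did (28.0 to 40.9 CPM against 39.4 to 55.9 CPM). No test passed. The log2 fold change over the 3 replicates was 0.41 with an SE of 0.48 in the fit without a block and 0.12 with the replicate as a block (adjusted p = 1.00 and 0.697, edgeR). In the disputed plates the order was not seen, with 52.9 CPM where annotated as control and 51.8 CPM where annotated as auxin.

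Fgfr2 (ENSMUSG00000030849) encodes the other FGF receptor of the early embryo, and its counts in replicates 2 and 3 may include reads of other genes. Its annotated body runs over chr7:130162451-133123350 on the minus strand, 2961 kb with 36 other genes on the same strand. It stood at 0.444 and 0.676 CPM in replicate 1 (8 and 13 UMIs), 134 and 132 CPM in replicate 2, and 134 and 119 CPM in replicate 3, for control and auxin. All 6 same-strand genes inside this body that had at least 20 CPM in replicate 1, among them Nsmce4a (113 CPM) and Oat (89.7 CPM), were at 0 in replicates 2 and 3, and none of the 7 opposite-strand genes fell below 1 CPM there. Whether reads of those genes were given to Fgfr2 was not tested, and its level is not compared with that of replicate 1 below. Within replicates, auxin and control did not pass a test (log2 fold changes 0.58, -0.07 and -0.13, edgeR's adjusted p = 0.843, 0.905 and 1.00).

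**Figure D1:**
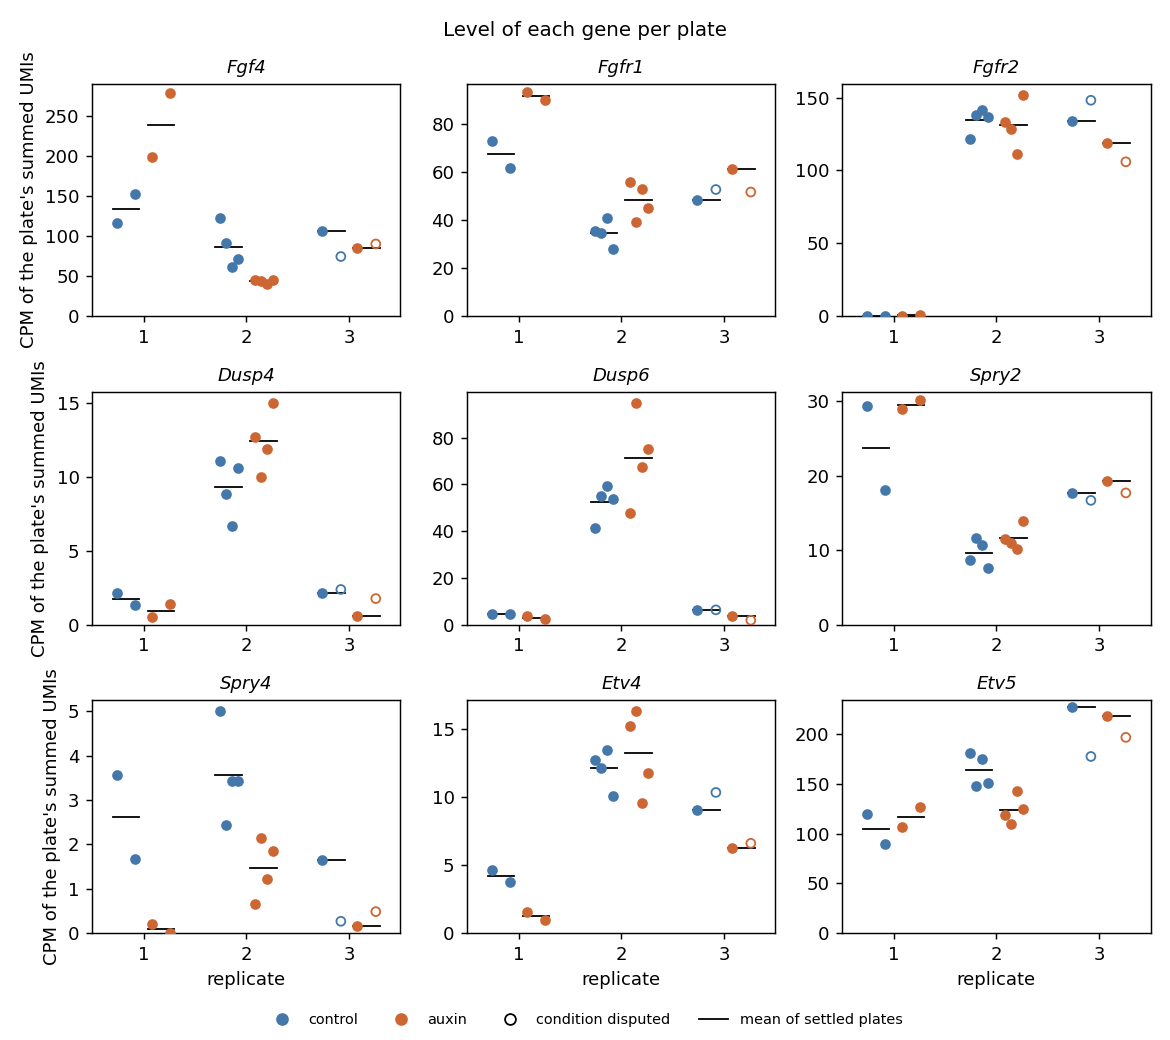
CPM of each of the 9 genes per plate, by replicate (x axis) and condition (colour). Points are plates, open points the 2 plates of disputed condition, and lines the means of the plates not in dispute, named settled in the legend (with 1 plate, its value). Dusp4 and Dusp6 stood highest in replicate 2 under both conditions, and Fgf4 lay higher with auxin in replicate 1 and lower in replicate 2.

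Dusp6 (ENSMUSG00000019960, chr10:99263231-99267489) encodes a cytoplasmic phosphatase that dephosphorylates ERK and is widely used as a readout of it. Its level differed between the cultures far more than between the conditions. Control plates stood at 4.41 and 4.78 CPM in replicate 1, at 41.5, 55.1, 59.3 and 53.7 CPM in replicate 2, and at 6.43 CPM in replicate 3. Auxin plates stood at 3.54 and 2.54 CPM in replicate 1, at 47.9, 94.9, 67.6 and 75.2 CPM in replicate 2, and at 3.74 CPM in replicate 3. Every plate of replicate 2 lay above every plate of the others, the disputed plates included (6.36 and 1.93 CPM). Between control plates, replicate 2 exceeded replicate 3 by 3.10 on the log2 scale (SE 0.40, adjusted p = 9.4e-05, edgeR), a comparison added after the data had been seen, because overlapping genes had like shares near 0 in these replicates. Replicate 3 has 1 plate here and the plates of replicate 2 come from 1 culture, so that p-values of this and the other comparisons between cultures measure plate spread only. Between replicates 2 and 3, 10.3% of all genes passed, and of the 9 genes only Dusp6 and Dusp4 did. Against auxin, Dusp6 was lower in replicates 1 and 3 (ratios of auxin to control 0.666 and 0.581) and higher in replicate 2 (1.37), and none of these passed (edgeR's adjusted p = 0.621, 1.00 and 0.338).

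Dusp4 (ENSMUSG00000031530, chr8:34807297-34819894), which encodes a nuclear phosphatase of the same family, was likewise highest in replicate 2 under both conditions. It stood at 1.72 and 0.936 CPM for control and auxin in replicate 1, 9.30 and 12.5 CPM in replicate 2, and 2.14 and 0.598 CPM in replicate 3. The control plates of replicate 2 (6.69 to 11.1 CPM) exceeded that of replicate 3 by 2.19 on the log2 scale (SE 0.59, adjusted p = 0.0269, edgeR), and without single control plates of replicate 2 the adjusted p reached 0.0499. The lowest values rested on few molecules, 31 and 18 UMIs in replicate 1 and 13 and 4 UMIs in replicate 3. Against auxin, its log2 fold changes were -0.89, 0.38 and -1.78 in replicates 1, 2 and 3 (edgeR's adjusted p = 0.639, 0.632 and 1.00).

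Spry2 (ENSMUSG00000022114, chr14:105891947-105896819) encodes a membrane-bound inhibitor of receptor tyrosine kinase signalling, and across the cultures it ran opposite to the phosphatase genes. Control and auxin levels were 23.4 and 29.5 CPM in replicate 1, 9.71 and 11.7 CPM in replicate 2, and 17.6 and 19.3 CPM in replicate 3. All 8 plates of replicate 2 (7.66 to 14.0 CPM) lay below all plates of the other replicates (16.7 to 30.2 CPM, disputed plates included). The difference between control plates of replicates 2 and 3 was -0.78 on the log2 scale and did not pass (SE 0.32, adjusted p = 0.155, edgeR), and that between replicates 2 and 1 was -1.60 and passed (SE 0.24, adjusted p = 7.1e-05, edgeR). The latter comparison called 46.9% of all genes, has a median log2 difference of 0.27 over them, and includes the difference in overlapping genes. Auxin and control differed by log2 fold changes of 0.30, 0.23 and 0.17 in replicates 1, 2 and 3, of which none passed.

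The upstream sequences of Dusp6 and Spry2 are shown because their levels ordered the cultures in opposite ways. Each is the 250 bases before the RefSeq start site (GRCm38.p6), 5′ to 3′ on the gene's own strand. Searched on either strand were GGAAG, which holds the core that ETS factors such as ETV4 and ETV5 bind, and the longer ETS motif CCGGAAGT, which contains it, with GGAAG matches in capitals (CTTCC where the match is on the other strand).
Dusp6, chr10:99262981-99263230, plus strand: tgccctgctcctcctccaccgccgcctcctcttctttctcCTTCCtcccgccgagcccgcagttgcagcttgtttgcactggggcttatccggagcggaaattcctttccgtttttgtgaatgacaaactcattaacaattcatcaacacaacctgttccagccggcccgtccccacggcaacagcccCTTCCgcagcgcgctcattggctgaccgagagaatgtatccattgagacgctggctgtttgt
Spry2, chr14:105896820-105897069, minus strand: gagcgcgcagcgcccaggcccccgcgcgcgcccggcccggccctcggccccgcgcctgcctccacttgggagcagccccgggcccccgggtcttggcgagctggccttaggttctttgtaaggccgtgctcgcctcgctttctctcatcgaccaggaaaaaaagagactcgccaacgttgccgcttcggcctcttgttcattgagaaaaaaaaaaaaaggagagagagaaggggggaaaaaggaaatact
Dusp6 held 2 matches of GGAAG and Spry2 held 0, where 64.1% of 32851 mouse promoters held at least 1. Neither held CCGGAAGT, which 2.88% of promoters held. In the other windows of the 9 genes, GGAAG had 0 matches for Fgf4, 1 for Fgfr2, and 0 and 2 at the 2 starts of Etv5. A match describes letters in this window and not a bound site.

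Spry4 (ENSMUSG00000024427, chr18:38586247-38601415), the other Sprouty gene, was scarce and was lower with auxin in each replicate. The control and auxin sums of replicates 1, 2 and 3 held 46 and 2, 175 and 75, and 10 and 1 UMIs, and none of these differences passed in edgeR. In CPM these are 2.55 and 0.104, 3.57 and 1.49, and 1.65 and 0.150. The ratios of auxin to control were 0.0407, 0.417 and 0.0907, with exact 95% counting intervals of 0.00479 to 0.156, 0.314 to 0.549 and 0.00209 to 0.638. Control plates lay above auxin plates in replicate 1 (1.66 and 3.57 CPM against 0 and 0.197 CPM) and in replicate 2 (2.43 to 5.00 CPM against 0.665 to 2.14 CPM).

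Those counts came from few cells. In replicate 1 the 46 UMIs lay in 10 of 168 control cells, 1 of which held 12, and the 2 UMIs in 2 of 169 auxin-treated cells. In replicate 2, 53 of 371 control and 34 of 290 auxin-treated cells held Spry4. The fits gave log2 fold changes of -4.56 in replicate 1 (SE 0.97, adjusted p = 0.0966, edgeR), -1.31 in replicate 2 (SE 0.50, adjusted p = 0.237) and -3.32 in replicate 3 (SE 1.42, adjusted p = 1.00). DESeq2 on the same plates of replicate 1 gave an adjusted p of 0.0264, in a fit that called 0.938% of all genes. Over the 3 replicates the log2 fold change was -2.21 without and -2.63 with the replicate as a block (edgeR's adjusted p = 1.00 and 0.697). The disputed plates held 2 UMIs where annotated as control and 3 UMIs where annotated as auxin.

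Etv4 (ENSMUSG00000017724, chr11:101769742-101785371) and Etv5 (ENSMUSG00000013089, chr16:22381309-22439719) encode closely related ETS factors that ERK signalling induces, and they differed in level and in pattern. Etv4 stood at 4.16 and 1.30 CPM for control and auxin in replicate 1, 12.1 and 13.2 CPM in replicate 2, and 9.07 and 6.28 CPM in replicate 3. Its plates in replicate 1 did not overlap (3.74 and 4.65 CPM against 0.994 and 1.57 CPM), with a log2 fold change of -1.71 (SE 0.40, adjusted p = 0.128 in edgeR and 0.0280 in DESeq2). In replicate 2 its plates overlapped (10.1 to 13.5 CPM against 9.55 to 16.4 CPM). The difference between the responses of these replicates, 1.80 on the log2 scale, did not pass (SE 0.46, edgeR's adjusted p = 0.144).

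Etv5 was the most abundant feedback gene in every sum. It stood at 103 and 116 CPM for control and auxin in replicate 1, 164 and 124 CPM in replicate 2, and 227 and 219 CPM in replicate 3. In replicate 2 the control plates (148 to 181 CPM) lay above the auxin plates (109 to 143 CPM), and the log2 fold change of -0.44 missed the threshold in edgeR and passed it in DESeq2 (SE 0.11, edgeR's adjusted p = 0.0663, DESeq2's adjusted p = 0.00199), where DESeq2 called 4.82% of all genes. Plates of replicate 1 overlapped (89.1 and 120 CPM against 106 and 127 CPM). Its level was highest in replicate 3, unlike that of the phosphatase genes, but the control difference between replicates 2 and 3 did not pass (-0.40 on the log2 scale, SE 0.18, edgeR's adjusted p = 0.199).

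**Figure D2:**
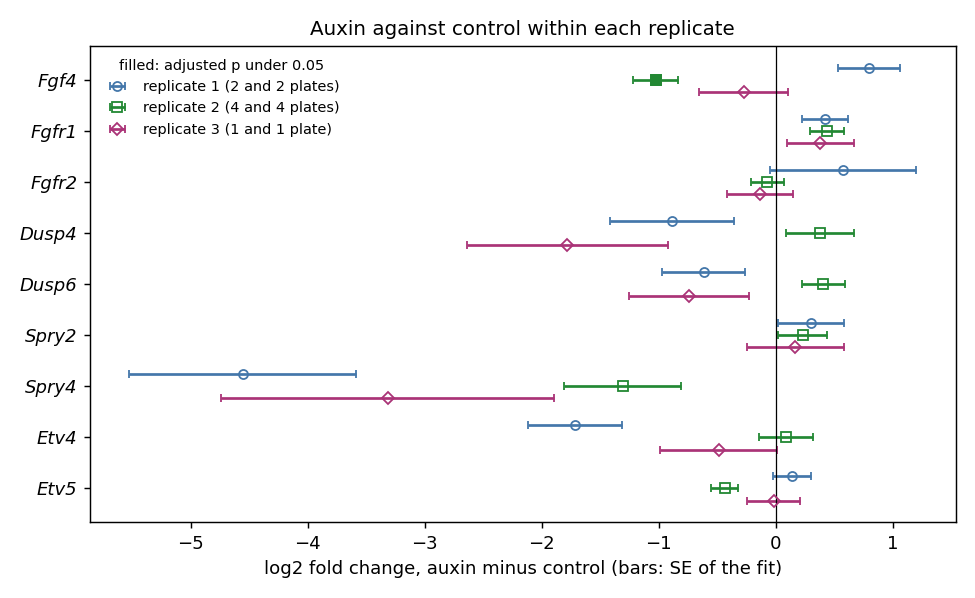
Log2 fold change between auxin and control (x axis) for each of the 9 genes within replicates 1, 2 and 3 (colour and symbol), from the fit with plates as units. Bars are standard errors and filled symbols passed an adjusted p of 0.05. Fgf4 in replicate 2 is the only filled symbol, and Fgfr1, Spry2 and Spry4 lie on 1 side of 0 in all replicates.

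Over all genes and the 3 replicates as units, auxin against control called 0 of 17514 genes in edgeR (33 at an unadjusted p under 0.05) and 0 in DESeq2 (66 unadjusted), that is 0% as background, and 0 of the 9. In the blocked fits 0.0171% of genes passed in edgeR (3 genes) and 0.325% in DESeq2 (57 genes), again with none of the 9. The plate fit called 19 genes in replicate 1 (0.0845%) and 1 in replicate 3 (0.00445%), none of them among the 9. The median log2 fold change of the 9 genes was 0.04 without and -0.18 with the block, beside -0.001 and 0.003 for all genes tested, and Fgf4, Dusp4 and Dusp6 were above 0 in the former fit (0.23, 0.04 and 0.26) and below 0 in the latter (-0.18, -0.49 and -0.18).

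Summed over the 6 feedback genes, the level hardly differed between the conditions. It was 139.8 CPM in control and 150.8 CPM in auxin in replicate 1, 251.1 and 234.6 CPM in replicate 2, and 264.3 and 248.7 CPM in replicate 3. The mean log2 difference was -0.03 ± 0.12 (SD, n = 3). Etv5 held between 52.9% and 87.9% of the UMIs in these sums, so that the sum mostly follows it. The sum ordered the cultures with replicates 2 and 3 above replicate 1, while Dusp6 and Dusp4 set replicate 2 apart from both.

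**Figure D3:**
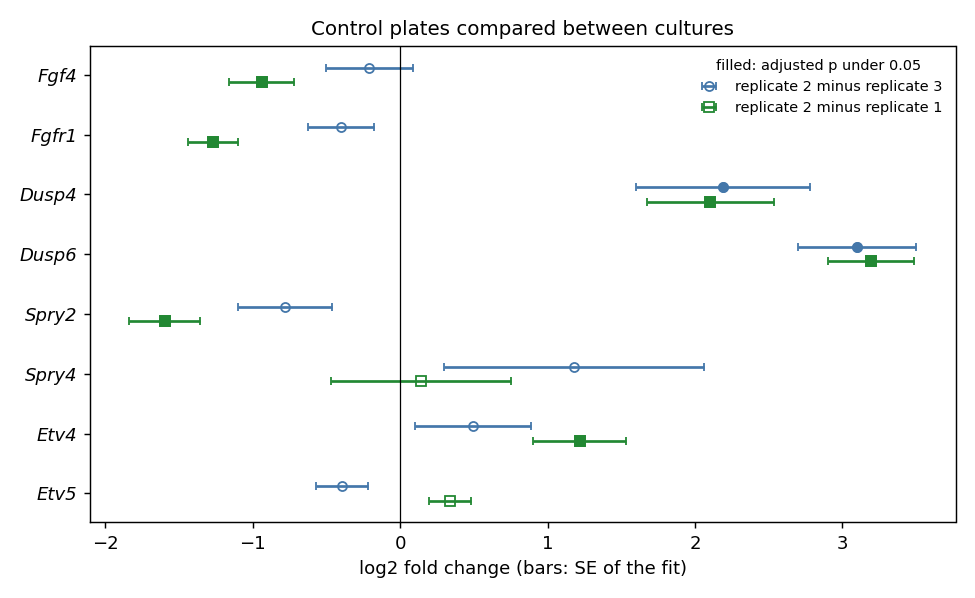
Log2 fold change between the control plates of replicate 2 and those of replicate 3 or replicate 1 (x axis) for 8 genes, without Fgfr2. Bars are standard errors of the plate fit and filled symbols passed an adjusted p of 0.05. Dusp6 and Dusp4 lie above 0 and passed in both comparisons, and Spry2 lies below 0.

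The cultures also differed in genes that mark the state of ES cells, which touches every comparison between them. Of the 8 ES cell markers, Nanog, a gene of the self-renewing state, stood at 495.8, 58.6 and 525.0 CPM in control cells of replicates 1, 2 and 3. Zfp42 stood at 274.9, 83.5 and 183.5 CPM and Esrrb at 66.8, 17.7 and 124.8 CPM. Utf1 was higher in replicate 2, at 29.4, 181.9 and 52.1 CPM, Tdgf1 was level at 642.0, 619.7 and 638.4 CPM, and Pou5f1 set replicate 1 apart, at 273.3, 8.40 and 12.5 CPM. Between the control plates of replicates 2 and 3, 4 of the 8 were lower in replicate 2, 1 was higher and 3 did not pass. The summed level of these markers was 9935, 4530 and 7844 CPM, of which Dppa5a alone held 7998, 3560 and 6308 CPM. Sox2, which overlaps another gene on its strand, was at 0 in replicates 2 and 3 and so could not pass between them. Lists of 5 other cell types (primitive endoderm, trophectoderm, feeder fibroblasts, neural and mesoderm genes) summed to between 1.21 and 67.3 CPM each. The 6 trophectoderm genes summed to 67.3, 10.2 and 41.2 CPM in control and 24.8, 8.42 and 23.3 CPM in auxin for replicates 1, 2 and 3. The 7 fibroblast genes summed to 14.3 and 27.3 CPM in replicate 2, for control and auxin, against 1.87 to 12.5 CPM elsewhere, but Dcn alone held 10.6 and 22.6 CPM of this, and between control plates of replicates 2 and 3 none of the 5 tested was higher and Col1a1 was lower in replicate 2 (0.184 against 3.13 CPM). The 4 neural genes summed to 44.2 and 61.9 CPM in replicate 2 against 5.38 to 32.3 CPM elsewhere, and 2 of them, Pax6 and Nes, were higher in control plates of replicate 2 than of replicate 3 by 3.03 and 1.67 on the log2 scale (SE 0.49 and 0.42, edgeR's adjusted p = 0.000643 and 0.0184). Sox1, another of the 4 neural genes, overlaps others on its strand. It held 26.8 CPM in control and 10.8 CPM in auxin of replicate 1 and was at 0 in replicates 2 and 3. The neural sums of replicate 1 therefore include the difference in overlapping genes. The part of these differences between cultures in the levels of the 9 genes was not tested. Replicate, sequencing run and culture cannot be told apart.

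Among 76 other genes of the pathway, the share that differed depended on the cultures compared. In the control comparison of replicates 2 and 3, 10 were higher in replicate 2, 3 were lower and 63 did not pass, which is 17.1% of the list (13.2% higher and 3.95% lower) beside 10.3% of all genes (4.88% higher and 5.42% lower). No test compared the list with other genes. Egr1 and the ligand genes Fgf5 and Fgf15 were near 0 outside replicate 2, while other output and ligand genes were not. Egr1, an ERK-induced transcription factor gene, stood at 0.388, 48.4 and 0.330 CPM in control cells of replicates 1, 2 and 3, and its log2 fold change between replicates 2 and 3 was 7.22 (SE 0.97, adjusted p = 0.000197, edgeR). Fgf5, a ligand gene of the primed state that follows self-renewal, stood at 0, 16.6 and 0.165 CPM, and Fgf15 at 0.277, 17.2 and 0 CPM. Fosl1, another output gene of the list, stood at 0.943, 10.9 and 7.91 CPM.

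By subgroup, 2 of 10 other ligand genes were higher in replicate 2 and 2 were lower. Of 9 receptor and co-receptor genes 1 was higher, of 8 adaptor genes 0 passed, and of 15 genes from RAS to ERK 2 were higher. None of the other 15 feedback inhibitor genes passed, and of 19 ETS and other output genes 5 were higher and 1 was lower. Ccnd1, the cyclin D1 gene, was higher by 1.36 (SE 0.22, edgeR's adjusted p = 0.000804) and Mapk3, which encodes ERK1, by 2.31 (SE 0.45, edgeR's adjusted p = 0.0033) on the log2 scale. Epha4, an ephrin receptor gene that overlaps another on its strand, was lower by 3.68 log2 units, from 96.0 CPM in replicate 3 to 7.10 CPM in replicate 2.

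Against replicate 1, where overlapping genes had other counts, 40 of the 76, or 52.6%, passed beside 46.9% of all genes (26.8% higher and 20.0% lower), with 23 higher and 17 lower in replicate 2. The 10 with the smallest p were Epha4, Spred2, Gpc3, Egr1, Fgf5, Ccnd1, Nf1, Mapk3, Fgf15 and Braf. Of these, Spred2, Nf1 and Braf did not pass between replicates 2 and 3 (edgeR's adjusted p = 0.266, 0.757 and 0.180). Of the 9 genes without Fgfr2, 6 passed there and Spry4 and Etv5 did not.

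Auxin against control called 1 of the pathway genes. In replicate 2, 1 of the 76 passed beside 1.98% of all genes. This was Ptpn11, which encodes the phosphatase SHP2 that relays receptor signals to RAS, at 68.1 CPM in control and 104.9 CPM in auxin (log2 fold change 0.58, SE 0.12, edgeR's adjusted p = 0.0205). It stood at 94.2 and 75.4 CPM in replicate 1 (log2 fold change -0.36, edgeR's adjusted p = 0.501), and leaving out single plates of replicate 2 raised its adjusted p to as much as 0.0749. In replicates 1 and 3, and over the 3 replicates with or without the block, 0 of the 76 passed (70 of them were tested over the replicates).

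Dusp6, Dusp4 and Spry2 ordered the cultures by the share of cells with a UMI as they did by level, though some counting intervals overlapped. Cells were thinned to 20000 UMIs each, because cells of replicate 2 were deeper, and exact 95% intervals cover counting error only. For Dusp6, 3.57% of 168 control cells of replicate 1 had a UMI (1.32% to 7.61%), 39.7% of 363 in replicate 2 (34.6% to 44.9%) and 8.33% of 84 in replicate 3 (3.42% to 16.4%). Without thinning the shares were 11.3%, 56.3% and 12.9%. With auxin the thinned shares were 2.37%, 47.7% and 6.33%. The interval of replicate 2 lay apart from those of the other replicates under both conditions.

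Dusp6 was unevenly spread over the cells of replicate 2. Its median was 2 UMIs in control and 7 in auxin-treated cells without thinning, its 90th percentile was 21 and 35, and its highest cell held 91 and 99. In replicates 1 and 3 the median was 0 in each condition, and the highest cell held 23 UMIs. Dusp4 had a UMI in 9.64% of thinned control cells of replicate 2 (6.81% to 13.2%), against 1.79% and 2.38% in replicates 1 and 3. In the thinned auxin-treated cells of replicate 3 it was found in 0 of 79, which allows a share of cells with a UMI of up to 3.80% when 3 cells are taken as the limit and 4.56% by the exact 95% interval, and so was Spry4.

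Fgf4 went from 68.5% of thinned control cells (60.8% to 75.4%) to 85.2% of auxin-treated cells (78.9% to 90.2%) in replicate 1. In replicate 2 it went from 56.2% (50.9% to 61.4%) to 33.6% (28.0% to 39.5%). The opposite order seen in the levels was thus also present in the share of cells. Its median without thinning was 9.5 and 25 UMIs in control and auxin-treated cells of replicate 1, and 6 and 0 UMIs in those of replicate 2.

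Etv5 was detected in most cells, between 69.6% and 91.7% of thinned cells in the 6 groups. Etv4 was found in 8.93% of thinned control and 1.18% of thinned auxin-treated cells of replicate 1 (5.08% to 14.3% and 0.144% to 4.21%), and in 20.1% and 19.9% in replicate 2. Spry2 had a UMI in 32.7%, 15.7% and 22.6% of thinned control cells of replicates 1, 2 and 3. The intervals were 25.7% to 40.4%, 12.1% to 19.9% and 14.2% to 33.0%. By these values its order over the cultures was the reverse of that of Dusp6, as it was in levels. The interval of replicate 3 overlapped both others for Spry2 and that of replicate 1 for Dusp6, so the full order is not resolved. For Fgfr1 the shares in replicates 1, 2 and 3 were 57.1%, 35.0% and 40.5% without auxin and 71.6%, 43.0% and 51.9% with it.

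**Figure D4:**
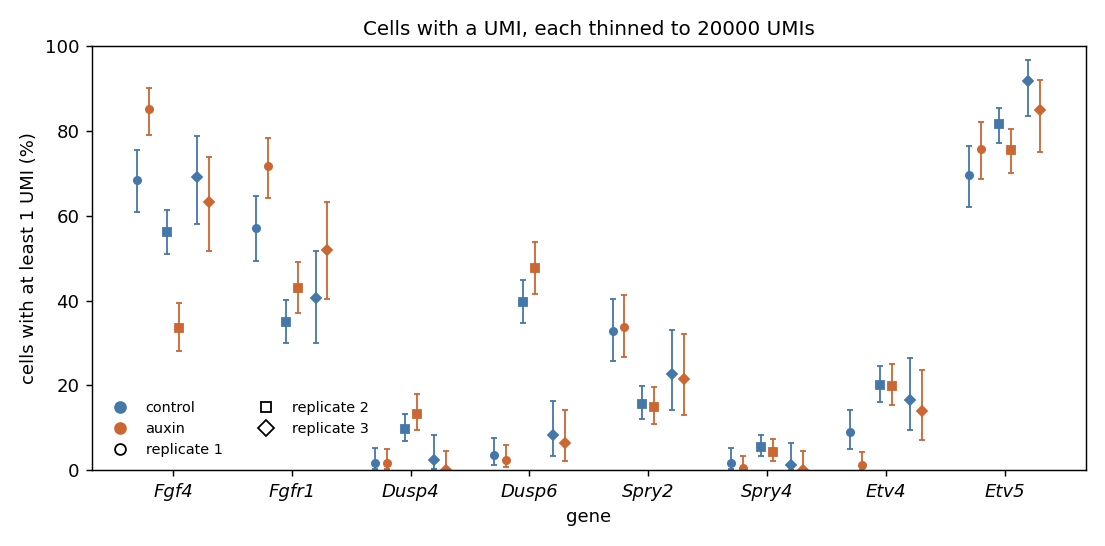
Share of cells with at least 1 UMI (y axis, percent) for 8 genes after thinning each cell to 20000 UMIs, by replicate (symbol) and condition (colour). Bars are exact 95% intervals for counting error. Dusp6 in replicate 2 stands at 39.7% and 47.7%, against at most 8.33% elsewhere.

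Across the cells of a replicate and condition, correlations among the feedback genes were close to 0. The Spearman correlation of CPM per cell, averaged over their 15 pairs, came to 0.0451, 0.0686 and -0.0301 among control cells for replicates 1, 2 and 3, and to 0.0134, 0.0343 and 0.0228 among auxin-treated cells. Over all pairs of the genes with a mean of at least 1 UMI per cell, these were 0.0139, 0.0413 and 0.00707 for control and 0.0127, 0.0518 and 0.0240 for auxin. The feedback pairs exceeded the general mean in 3 of 6 groups. The latter genes are mostly better counted than the feedback genes, of which Dusp4, Dusp6, Spry4 and Etv4 averaged under 1 UMI per cell in replicates 1 and 3, and sparse counts hold a correlation near 0, so that nothing is read from the difference. These correlations are descriptions, since cells of 1 plate share library and run, and Dusp4 and Spry4 had a median of 0 UMIs in each group.

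Single pairs varied in sign between groups. The lowest and highest of all pairs of feedback genes were Etv4 and Etv5 at -0.336 in control cells of replicate 3 and Dusp6 and Spry4 at 0.316 in its auxin-treated cells, where Spry4 had 1 UMI in all. For Dusp6 and Etv4 it was 0.308 and -0.0176 in replicate 1, control first, 0.130 and 0.156 in replicate 2, and 0.150 and 0.0361 in replicate 3. Dusp4 and Dusp6, which moved together between cultures, had 0.0960 and 0.116 across the cells of replicate 2. Fgf4 and Etv5 had 0.104, 0.151, 0.188 and 0.254 in the 4 groups of replicates 1 and 2, and -0.217 and 0.176 in replicate 3.

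**Figure D5:**
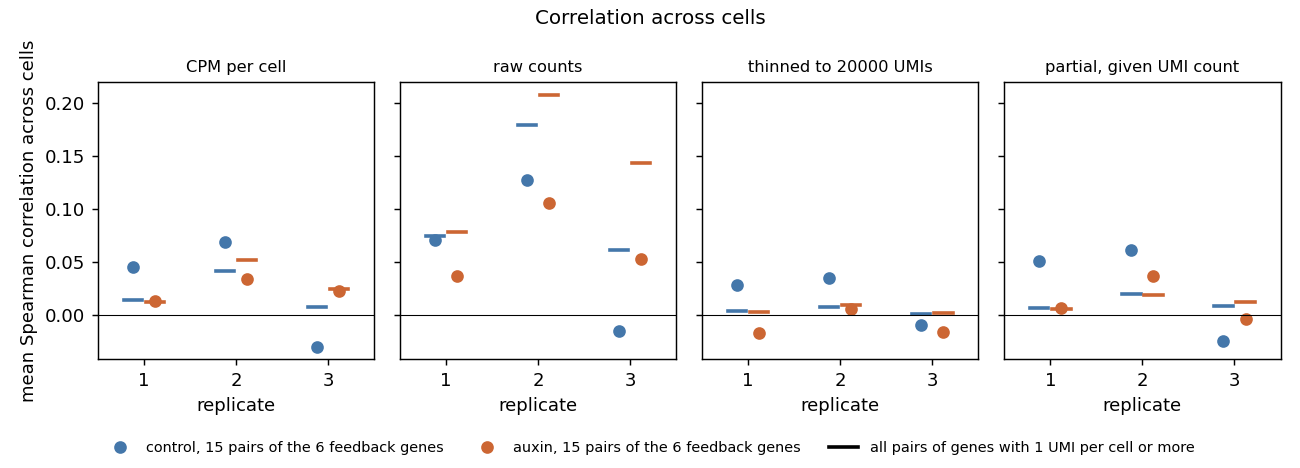
Mean Spearman correlation across cells (y axis) among the 15 pairs of the 6 feedback genes (points) and among all pairs of genes with at least 1 UMI per cell on average (bars), by replicate and condition, for 4 treatments of the UMI count per cell. In the thinned panel the auxin point of replicate 3 leaves out pairs with Dusp4 or Spry4, which had no UMI in its cells. The feedback genes are sparser than most genes behind the bars, and with CPM per cell they lie between -0.0301 and 0.0686.

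The genes whose CPM per cell was most like the summed CPM of the feedback genes, by mean Spearman correlation over the 6 groups, among 9270 genes, included Manba (0.182), Zfp985 (0.160), Mov10 (0.156) and Usp7 (0.152). The median over all 9270 genes was 0.00908. The lowest were Calr (-0.141), Cox5b (-0.128), B2m (-0.121), 2510039O18Rik (-0.119) and Ptges (-0.117). Manba, which encodes a lysosomal mannosidase, ran from 0.00184 to 0.298 over the 6 groups, so that the order among these genes is loose.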

How the data were processed

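For each gene and well the authors deposited raw UMI counts, made from Smart-SCRB reads on the mouse build mm10. The aligner, counter and annotation are not given in the sources used here, and the deposited counts differ between replicates for overlapping genes. Spike-in rows (2.03% to 5.07% of a plate's counts) and transgene rows, which name no gene, were left out. The study's cell filter, over 2600 detected genes, was applied. Sums over the cells of a plate, or of a replicate's condition, were tested with edgeR 4.0.16 (quasi-likelihood, TMM, filterByExpr, Benjamini-Hochberg, threshold 0.05) in R 4.3.3. The SEs beside edgeR's values, and the bars of its figures, were derived as the absolute log2 fold change over the square root of the F statistic. The plate fit had 1 term per replicate and condition, so lone plates of replicate 3 were assumed to vary like the others. DESeq2 1.42.0, other scalings, filters, cells and left-out plates were alternatives. The replicate numbers pair the samples, since the study repeated its whole procedure for each and deviations of its sums from the group means correlated by 0.866, 0.824 and 0.666 across genes, so that a blocked fit was also made. None of the 9 genes passed in either. Spearman correlations were computed in Python 3.11.15. Scripts were tested on simulated data. Named genes are the 9, pathway genes past a threshold (at most 10 per comparison, by p), the 5 nearest and 5 farthest patterns, of which 1 is not reported here, and Rad21. The ES cell, neural and fibroblast markers, Nsmce4a, Oat and Fosl1 were singled out after their values were seen. Members and lists were chosen with earlier results of these data known. Comparisons of replicate 3 were added after the data were seen. Promoter sequences are from RefSeq (GRCm38.p6), whose table used here matched 5 of the 9 genes by symbol, Fgf4, Fgfr2, Dusp6, Spry2 and Etv5.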

Additional observations from a re-analysis of the deposited data

Results flagged for a closer look

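The summed level of the 6 feedback genes on the lowest of the 4 auxin plates of replicate 2 was 207 CPM, apart from the other 3, which lay between 243 and 244 CPM. Its gap to the nearest plate was 0.975 of the group's range, over Dixon's 95% critical value for 4 samples. Of the groups of 4 plates, 20 were tested, and chance sets about 1 in 20 apart. On this plate Dusp6 was also lowest, at 47.9 CPM against 67.6 to 94.9 CPM.

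The auxin responses of Fgf4 in replicates 2 and 1 differed by -1.83 on the log2 scale by the test of the difference itself (SE 0.33, adjusted p = 0.0317, edgeR). Fgf4 was higher with auxin on both auxin plates of replicate 1 than on its control plates and lower on all 4 of replicate 2. The call of the difference was lost for 8 of 12 plates when each was left out, with log2 differences from -2.06 to -1.56. The conditions of these plates rest on the annotation alone.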

How the results depend on the processing

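Fgf4 in replicate 2 stayed past the threshold under each alternative, and so did Dusp6 and Dusp4 between replicates 2 and 3, where leaving out control plates gave 3.05 to 3.20 and 2.10 to 2.33. Of the other results tried, 4 turned direction when 1 plate was left out, and none of the 4 had passed. These were Fgfr2 in replicate 1 (-0.60 without the second auxin plate, range up to 1.48), Etv5 in replicate 1 (-0.037 without the second control plate, range up to 0.33), Etv4 in replicate 2 (-0.018 without the second auxin plate, range up to 0.22), and Spry4 between replicates 2 and 1 (-0.29 without the second control plate of replicate 1 and -0.09 without the first of replicate 2, range up to 0.75). The call of Fgf4 between control plates of replicates 2 and 1 was lost without the second control plate of replicate 1 (-0.70), and that of Etv4 likewise (1.09 to 1.35 over the plates). In that comparison Spry4 or Etv5, not called in the main fit, passed in 6 cases under alternative settings. Over the alternatives, adjusted p ranged from 0.00905 to 0.699 for Spry4 and from 0.0280 to 0.877 for Etv4 in replicate 1, and from 0.00199 to 0.188 for Etv5 in replicate 2; the cause was not tested.

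With the replicate as a block, 3 genes were called over the 3 replicates in edgeR and 57 in DESeq2, against 0 without it. The blocked count was again 3 with cells over 4000 detected genes, with the disputed plates as annotated, and with overlapping genes left out, and 0 with those plates as in the source values. Leaving out single replicates gave 2 to 32 with the block and 0 in each case without it. The block changed no call among the 9 genes.

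Counts over all genes depended on the tool and filter. In replicate 2 they were 1084 in DESeq2, 1092 without a gene filter, 888 with its plates alone and 194 to 281 without single plates. In replicate 1 they were 211, 374, 0 and 12 to 48 in the same order. In replicate 3 DESeq2 called 18 and no filter 38. The difference between the responses of replicates 2 and 1 called 368 in DESeq2, 539 without a filter and 37 to 67 without single plates. Scaling by total UMIs alone moved the split of calls from 221 higher and 224 lower to 280 and 189 in replicate 2, and from 6038 and 4508 to 7814 and 3211 between replicates 2 and 1, whose median log2 difference went from 0.27 to 0.58.

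The mean log2 difference of the feedback sum ran from -0.093 to 0.011 without single replicates. The mean correlation of the feedback genes in auxin-treated cells was 0.0650 in raw counts and -0.00896 after thinning, against 0.0235. The thinned value leaves out the pairs of replicate 3 with Dusp4 or Spry4, which had no UMI in those thinned cells. Depth limits Spry4 and Dusp4, which rested on 1 to 13 UMIs in replicate 3.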
